A study of Mus musculus with 2 samples.

Results

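Tubule injury genes are transcripts that kidney tubule cells are known to raise when they are damaged, and the 9 described here were chosen by name, with no measured value: Havcr1, Lcn2, Krt20, Clu, Krt8, Krt18, Cd24a, Sox9 and Wfdc2. All 9 were among the 53698 gene entries measured. They were read in tubule cells that entered a sort for stromal cells, against the stromal and endothelial cells of the same libraries. Kidney cells of FVBN mice positive for the PDGF receptors alpha and beta were profiled with droplet-based 3′ chemistry (10x Chromium version 2), in which each captured transcript carries a unique molecular identifier (UMI). One library was labelled UUO, for unilateral ureteral obstruction, an operation that blocks urine flow from 1 kidney, and was taken 10 days after it, and 1 was labelled sham. Age, sex and the number of mice behind each library are not given in the sources used here, and no other treatment is named. An eGFP reporter, which those sources do not describe, was kept out of the genes used for clustering.

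A damaged proximal tubule loses the transporters that reclaim glucose, phosphate and amino acids, and places Havcr1, a receptor for dying cells, on its surface. Segments further along, from the thick ascending limb of the loop of Henle to the collecting duct, are known for secreting Lcn2, a protein that binds bacterial iron carriers and is measured in urine as a marker of kidney damage. Sox9, a transcription factor, marks tubule cells in repair, and the keratins Krt8, Krt18 and Krt20 build the intermediate filaments of simple epithelia. Clu is a secreted chaperone, Cd24a a lipid-anchored surface glycoprotein and Wfdc2 a secreted protein of the whey acidic protein family.

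After filtering, 1043 cells of the library labelled UUO and 9748 of the library labelled sham were retained, with medians of 4139 and 7469 UMIs. With 1 library per group there was no replicate and no test, and every interval given is an exact 95% interval for counting error alone. The 2 libraries shared 16 barcodes, and each fibroblast cluster came almost wholly from 1 library, while the pericyte cluster held cells of both. Cells were clustered with the 9 genes left out, and clusters were named from marker genes. Loop or distal tubule-like cells numbered 16 in the library labelled UUO and 236 in the library labelled sham, or 1.53% (0.879 to 2.48) and 2.42% (2.13 to 2.75) of cells. Proximal tubule-like cells numbered 82 and 37, or 7.86% (6.30 to 9.66) and 0.380% (0.267 to 0.523). Stromal-like cells numbered 691 and 7276, and endothelial-like cells 77 and 426.

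The tubule classes held their defining transcripts. Umod, the major urinary protein of the thick ascending limb, stood at 1871 UMIs per 1000000 UMIs of the class (CPM) in the loop or distal tubule-like cells of the library labelled UUO and at 3984 CPM in those of the library labelled sham. Epcam, an epithelial adhesion protein, stood at 767 and 736 CPM there. Kap, an androgen-dependent proximal tubule protein, stood at 9922 CPM in the proximal tubule-like cells of the library labelled UUO and 2934 CPM in those of the library labelled sham, and the phosphate transporter Slc34a1 at 3897 and 1355 CPM. The sort markers Pdgfra and Pdgfrb were at 0 in the loop or distal tubule-like cells labelled UUO and at 23.4 and 33.0 CPM in those labelled sham, against 255 and 185 CPM in stromal-like cells labelled UUO and 236 and 291 CPM in those labelled sham. The loop or distal tubule-like cells labelled UUO were shallow, with a median of 1357 UMIs, 41699 in all and 2 cells over 10000. Those labelled sham had a median of 9524 UMIs and 2604777 in all. A count of 0 therefore allows up to 71.9 CPM in the first group and 1.15 CPM in the second, taking 3 counts as the floor. The proximal tubule-like cells had medians of 1754 and 5691 UMIs.

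Across the cell types of the library labelled sham, the 9 genes fell into those of the loop and distal tubule (Lcn2, Clu, Krt8, Krt18, Cd24a and Wfdc2), those that stood highest in proximal tubule-like cells (Havcr1 and Sox9) and Krt20, of which almost no UMI was found in either library. In the library labelled UUO, Cd24a stood higher in endothelial-like cells (523 CPM) than in loop or distal tubule-like cells (120 CPM). Lcn2 stood at 45.01 CPM in endothelial-like cells and 0 in loop or distal tubule-like cells of that library. A count of 0 there allows up to 71.9 CPM, so no order is read for Lcn2. All of the 6 genes of the first set were higher in the library labelled sham than in the library labelled UUO in loop or distal tubule-like cells, and Lcn2 was at 0 in the library labelled UUO. Havcr1 was found in no barcode labelled UUO, before or after filtering, and in 43 barcodes labelled sham with 76 UMIs. Because ureteral obstruction is known to raise Havcr1 and Lcn2 in tubules, these values run against the labels. Each library is therefore called by its label only, and none of the differences is attributed to the operation.

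**Figure D1:**
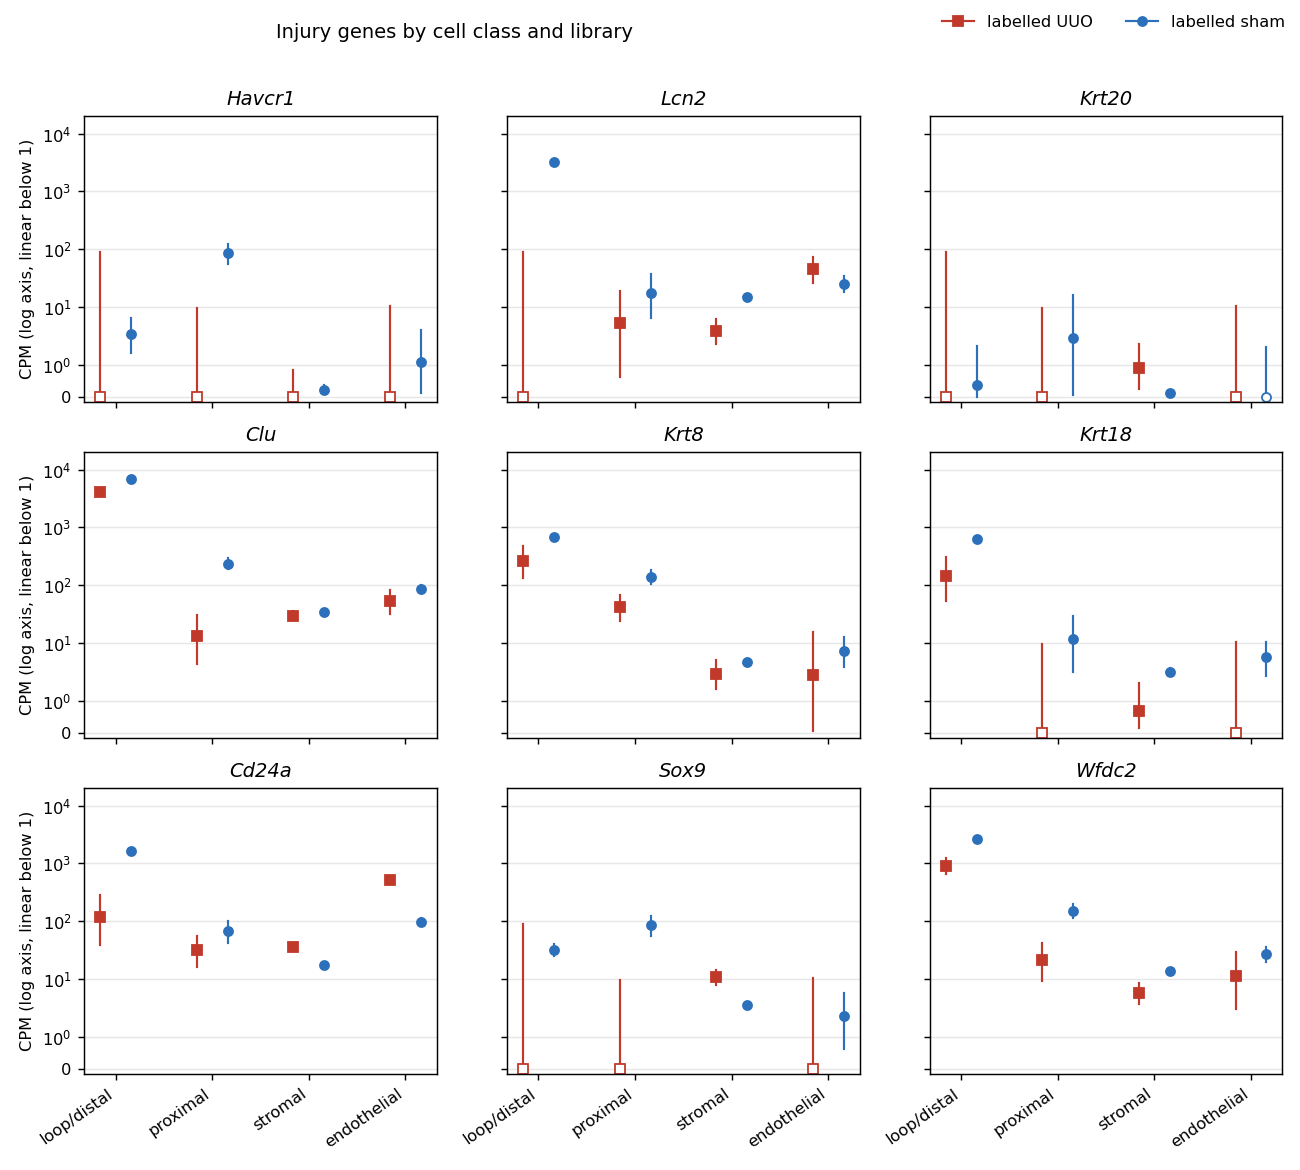
Level of each of the 9 genes in 4 cell classes, as CPM on a log axis that is linear below 1, with the library labelled UUO as red squares left of the library labelled sham as blue circles; lines are exact Poisson 95% intervals and open markers are counts of 0. Lcn2 reached 3184 CPM in loop or distal tubule-like cells labelled sham and 0 in those labelled UUO, and Cd24a in endothelial-like cells was higher in the library labelled UUO.

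Lcn2 gave the widest difference between the libraries. No Lcn2 UMI was found among the 41699 UMIs of the 16 loop or distal tubule-like cells labelled UUO, whereas 8293 UMIs in 203 of the 236 cells labelled sham gave 3184 CPM (3116 to 3253). Set against the floor, the level labelled UUO was at least 44.3-fold lower, and by its exact interval at least 36.0-fold lower. With each cell thinned to 1000 UMIs and shallower cells left out, 0 of 10 cells labelled UUO (up to 30.8%) and 157 of 228 cells labelled sham, 68.9% (62.4 to 74.8), held an Lcn2 UMI, and the intervals did not overlap. In thinned stromal-like cells, whose median depths were 5480 and 8673 UMIs, the shares were 0.299% (0.0362 to 1.08) and 1.57% (1.296 to 1.88). In the other classes Lcn2 was low in both libraries, at 5.24 and 17.4 CPM in proximal tubule-like cells, 3.87 and 15.1 CPM in stromal-like cells and 45.01 and 25.3 CPM in endothelial-like cells labelled UUO and sham. The 16 endothelial UMIs labelled UUO came from 2 cells with 8 each.

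Krt8 and Krt18 are a type II and a type I keratin that pair into 1 filament. Krt8 stood at 264 CPM (132 to 472) in the loop or distal tubule-like cells labelled UUO and 694 CPM (662 to 726) in those labelled sham, 2.63-fold lower (1.47 to 5.28). Krt18 stood at 144 CPM (52.8 to 313) and 628 CPM (598 to 659), 4.36-fold lower (2.00 to 11.9). One cell of 12315 UMIs held 4 of the 6 Krt18 and 6 of the 11 Krt8 UMIs labelled UUO. Without the cell richest in the gene in each library, Krt18 stood at 68.1 CPM in the library labelled UUO and 600.2 CPM in the library labelled sham, and Krt8 at 170.2 and 679 CPM. Of the cells with Krt8, 1 of 5 labelled UUO and 165 of 206 labelled sham also held Krt18. In proximal tubule-like cells the 2 genes parted, with Krt8 at 41.9 CPM in the library labelled UUO and 140 CPM in the library labelled sham, and Krt18 at 0 and 11.6 CPM. Alevin shares UMIs that match several genes, and 99.1% of the nonzero Krt8 values labelled sham were whole numbers, against 100% for the other members found there.

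The promoter windows of Lcn2, Krt8 and Krt18 are shown, as 3 of the members that stood high together in the loop or distal tubule-like cells labelled sham. Wfdc2, at 2627 CPM in those cells, has 2 windows, which are not shown. Krt8 lies on chromosome 15 at 101996698 to 102004482 (minus strand) and Krt18 at 102028180 to 102032027 (plus strand), 23697 bases apart (GENCODE M21, mouse build mm10). The annotation places Gm36026 on the opposite strand, overlapping Krt8. Each window holds the 250 bases before a transcription start in RefSeq (GRCm38.p6), written 5′ to 3′ on the strand of the gene, and 6 of the 9 members have such an entry. The RefSeq starts of all 3 genes lie inside their GENCODE spans, so each window overlaps the GENCODE gene. The GENCODE span of Lcn2 is 32384633 to 32388252 on chromosome 2. Capitals mark motifs found on either strand, which do not overlap one another here.
Lcn2, chr2:32387740-32387989, minus strand: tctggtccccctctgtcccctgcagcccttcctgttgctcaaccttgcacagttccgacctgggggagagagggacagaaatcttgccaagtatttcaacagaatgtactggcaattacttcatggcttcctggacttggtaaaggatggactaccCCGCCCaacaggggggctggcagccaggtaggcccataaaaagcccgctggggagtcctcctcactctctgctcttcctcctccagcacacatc
Krt8, chr15:102004343-102004592, minus strand: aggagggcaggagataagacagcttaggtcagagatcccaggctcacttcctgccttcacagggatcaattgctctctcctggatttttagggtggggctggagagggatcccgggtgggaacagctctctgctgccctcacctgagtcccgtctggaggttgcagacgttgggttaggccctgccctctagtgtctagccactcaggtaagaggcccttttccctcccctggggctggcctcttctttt
Krt18, chr15:102027966-102028215, plus strand: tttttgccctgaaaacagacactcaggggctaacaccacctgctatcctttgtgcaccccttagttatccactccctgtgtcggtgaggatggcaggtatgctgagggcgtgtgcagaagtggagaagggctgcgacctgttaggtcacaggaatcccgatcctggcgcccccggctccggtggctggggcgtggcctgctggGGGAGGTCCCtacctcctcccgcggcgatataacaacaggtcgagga
The motifs searched were the TATA box TATAAA, the AP-1 site TGANTCA, the STAT site TTCNNNGAA, the GC box GGGCGG, the SOX site AACAAT and the NF-kappaB site. In the Lcn2 window a GC box on the opposite strand ran from base -94 to -89 before the start, a motif held by 33.0% of all 32536 windows. In the Krt18 window an NF-kappaB site ran from base -47 to -38, held by 7.28% of windows. None of the 6 motifs was found in the Krt8 window. A TATA box, held by 12.3% of windows, was found in the Krt20 window, at base -29 to -24. The 2 Wfdc2 windows each held a GC box, at base -53 to -48 and -54 to -49. The GC content was 56.4% for Lcn2, 58.0% for Krt8 and 60.4% for Krt18, against a median of 52.4% over all windows.

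In the library labelled sham, Wfdc2 and Clu were found in more loop or distal tubule-like cells than any other member. Wfdc2 stood at 911 CPM (645 to 1251) in those labelled UUO, with a UMI in 10 of 16 cells, and at 2627 CPM (2566 to 2690) in those labelled sham, with a UMI in 230 of 236, a 2.88-fold (2.10 to 4.08) lower level. A single cell of 10064 UMIs held 21 of the 38 Wfdc2 UMIs labelled UUO. Without the cell richest in the gene in each library, Wfdc2 stood at 537 CPM in the library labelled UUO and 2599 CPM in the library labelled sham. Clu stood at 4101 CPM (3509 to 4764) and 6728 CPM (6628 to 6828), and this ratio was within 2-fold. Of the 171 Clu UMIs labelled UUO, 149 came from the same cell, and 4 other cells held the remainder. Leaving out the richest cells likewise, Clu stood at 695 CPM in the library labelled UUO and 6621 CPM in the library labelled sham, a log2 ratio of -3.21 after adding 20 CPM. The median cell held 0 Clu UMIs in the library labelled UUO and 41 in the library labelled sham.

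Cd24a moved one way in tubule cells and the other way in endothelial cells. In loop or distal tubule-like cells it stood at 120 CPM (38.9 to 280) in the library labelled UUO, from 5 UMIs, and 1654 CPM (1605 to 1704) in the library labelled sham, 13.8-fold lower (5.91 to 42.5). Of the 5 UMIs, 3 came from 1 cell, and without the cell richest in Cd24a in each library the levels were 68.1 CPM in the library labelled UUO and 1642 CPM in the library labelled sham. In endothelial-like cells it stood at 523 CPM (451 to 604) in the library labelled UUO and 97.2 CPM (83.3 to 113) in the library labelled sham, 5.38-fold higher (4.35 to 6.66). A UMI was found in 46 of 77 and 98 of 426 endothelial-like cells, and after thinning in 38.8% (27.1 to 51.5) and 9.62% (6.90 to 12.97). An endothelial cluster with Esm1, a marker of sprouting vessels, among its leading genes held 47 cells labelled UUO and 0 labelled sham, with Cd24a at 589 CPM (502 to 685). In the other endothelial clusters Cd24a stood at 272 CPM (166 to 420) in 30 cells labelled UUO, against the 97.2 CPM of the library labelled sham. In stromal-like cells it stood at 36.2 and 17.2 CPM, a ratio of 2.11 (1.77 to 2.49). Among pericyte- or smooth muscle-like cells the values were 147 CPM (97.8 to 213) in the library labelled UUO and 124 CPM (83.3 to 179) in the library labelled sham, with intervals that overlapped.

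**Figure D2:**
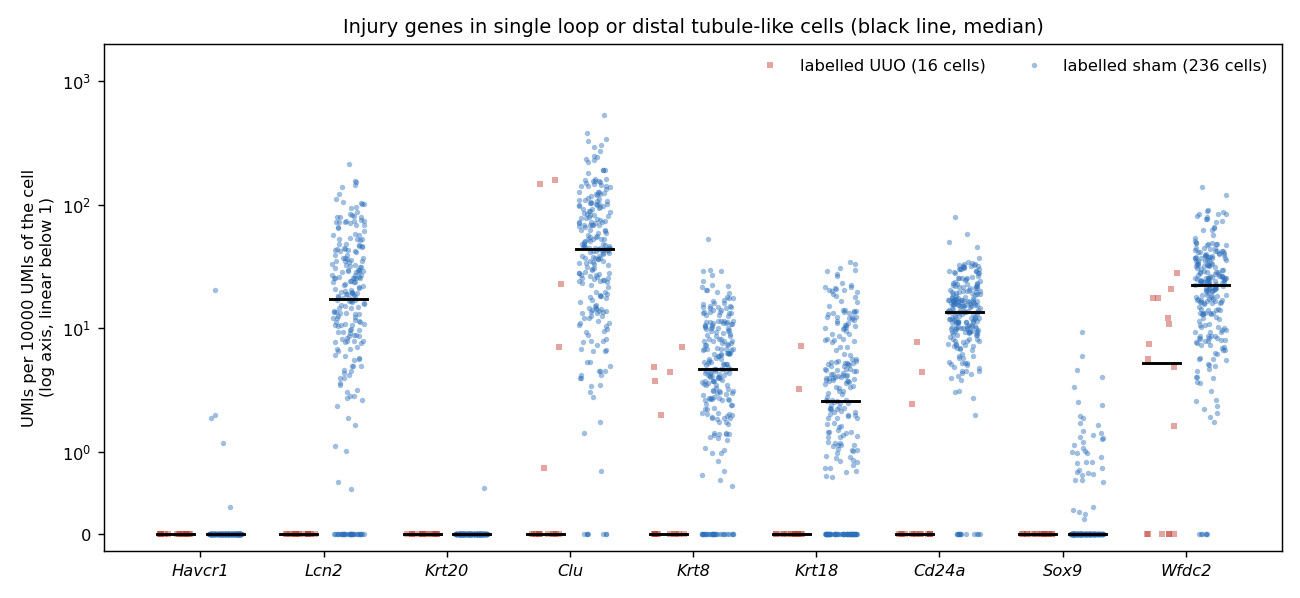
UMIs of each gene per 10000 UMIs of the cell, on a log axis that is linear below 1, in the 16 loop or distal tubule-like cells labelled UUO (red squares, left) and the 236 labelled sham (blue circles, right); points are cells, spread sideways at random, and black lines are medians. No Lcn2, Sox9, Havcr1 or Krt20 was found in the cells labelled UUO, and a single cell of that library held 149 Clu UMIs. A count of 0 in these cells allows up to 71.9 CPM. The levels labelled sham of Sox9 (31.9 CPM), Havcr1 (3.46 CPM) and Krt20 (0.384 CPM) lay below this, and that of Lcn2 above it.

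Set beside all genes, a member counted as higher or lower when its CPM differed at least 2-fold after 20 CPM were added to each. Only genes reaching 50 CPM in 1 of the groups and 10 UMIs in 1 of the groups were read. These could be different groups. Cd24a passed so between loop or distal tubule-like cells (120 CPM, 5 UMIs) and stromal-like cells (36.2 CPM, 159 UMIs) labelled UUO. In the loop or distal tubule-like cells, 6 of the 9 members passed this minimum between the libraries, 0 were higher in the library labelled UUO and 5 were lower (Lcn2, Krt8, Krt18, Cd24a and Wfdc2). Among all 3626 genes that passed, 19.1% were higher and 13.7% lower. In the proximal tubule-like cells 6 members passed, 0 were higher and 5 were lower (Havcr1, Clu, Krt8, Sox9 and Wfdc2), against 10.6% higher and 11.6% lower among 3329 genes. In stromal-like cells no member passed, with 11.5% of 3463 genes higher and 5.37% lower. In endothelial-like cells 2 passed, and Cd24a alone was higher while Clu was within 2-fold, against 8.09% higher and 4.62% lower among 3893 genes. In proximal tubule-like cells all 6 members that passed lay below 50 CPM in the library labelled UUO. They passed only through the library labelled sham, as did Lcn2, Krt18 and Cd24a in loop or distal tubule-like cells. Passing in this way favours a call of lower, so these counts describe the 2 libraries and no more.

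Within the library labelled sham, the loop or distal tubule-like cells were set against the stromal- and endothelial-like cells. All 6 members that passed the minimum were higher than in stromal-like cells, against 10.5% of all genes, and all 6 were higher than in endothelial-like cells, against 9.87%. In stromal-like cells all 6 lay below the 50 CPM minimum, so they passed only through the class where they were high, as did all but Clu and Cd24a against endothelial-like cells, and nothing is read from these counts. The level was 210-fold (197 to 225) that of stromal-like cells for Lcn2, 197-fold (170 to 230) for Krt18, 193-fold (184 to 202) for Clu, 188-fold (175 to 202) for Wfdc2, 145-fold (129 to 165) for Krt8 and 96.3-fold (90.1 to 103) for Cd24a. Over endothelial-like cells the range ran from 17.0-fold (14.6 to 19.9) for Cd24a to 126-fold (94.0 to 173) for Lcn2.

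Among the cells labelled UUO, 4 members passed the minimum in the loop or distal tubule-like cells against stromal-like cells, and all 4 (Clu, Krt8, Cd24a and Wfdc2) were higher, against 22.3% of genes. These 4 also lay below 50 CPM in stromal-like cells, and nothing is read from the count. The level was 160-fold (94.2 to 277) for Wfdc2, 138-fold (109 to 174) for Clu, 89.1-fold (36.2 to 216) for Krt8 and 3.31-fold (1.06 to 7.89) for Cd24a. These folds rest on few cells. Without the cell richest in the gene in each class, the log2 ratio after adding 20 CPM was 3.98 for Clu (6.37 with it), 4.48 for Wfdc2 (5.18), 3.08 for Krt8 (3.63) and 0.71 for Cd24a (1.32), which was then within 2-fold. Under the marker gate Clu stood at 73.4 CPM in loop or distal tubule cells and 27.7 CPM in stromal cells labelled UUO. Krt18, with 6 UMIs against 3, stayed below the minimum. Against endothelial-like cells 4 passed, 3 were higher and Cd24a was lower, 4.36-fold (1.84 to 13.6), with 12.9% of genes higher and 29.2% lower. Krt8 and Wfdc2 lay below 50 CPM in endothelial-like cells and passed only through the class where they were high, so nothing is read from this count. With cells gated on marker UMIs alone, these counts of higher members fell to 2 and 1.

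Havcr1 and Sox9 formed the proximal set. In proximal tubule-like cells, Havcr1 was at 0 among the 381579 UMIs labelled UUO (up to 7.86 CPM) and at 84.3 CPM (56.5 to 121) in the library labelled sham, from 29 UMIs in 9 of 37 cells. Sox9 was likewise at 0 in the library labelled UUO and at 84.3 CPM (56.5 to 121), again 29 UMIs, in 10 cells labelled sham. Set against the floor, both levels labelled UUO were at least 10.7-fold lower, and by their exact intervals at least 8.18-fold lower. Of the 9 cells with Havcr1, 7 also held Sox9 and 8 held Vcam1, an adhesion molecule of injured tubules, which was found in 15 of the 37 cells. The Havcr1 counts in those cells were 10, 8, 3, 2, 2, 1, 1, 1 and 1. In the other classes labelled sham Havcr1 stood at 3.46 CPM in loop or distal tubule-like, 0.224 in stromal-like and 1.12 in endothelial-like cells.

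These cells were deep and poor in the transcripts that define the proximal tubule. Their median was 15807 UMIs, against 3360 in the 28 proximal tubule-like cells labelled sham without Havcr1, and 8 of the 9 held over 9000 UMIs, as did 17 of all 37. Kap, Miox and Slc34a1 together made up a median of 0.101% of their UMIs, against 0.767% in the cells without Havcr1, and 1.95% in the 82 cells labelled UUO. Of the cells labelled UUO, 11 held over 9000 UMIs, and none of these held Havcr1 or Sox9. After thinning to 1000 UMIs, Havcr1 was found in 0 of 58 cells labelled UUO and 2 of 35 labelled sham, and Sox9 in 0 of 58 and 0 of 35, so at equal depth a difference in the share of cells was not detectable. With cells gated on at least 1% of UMIs from Kap, Miox and Slc34a1 instead of clusters, 58 cells labelled UUO and 10 labelled sham remained, and Havcr1 and Sox9 were at 0 in both, where the 10 cells labelled sham held 37925 UMIs in all. Cells that met more than 1 gate were left out, and 1 of the 9 cells with Havcr1 held at least 1% of these transcripts. Macrophage markers summed to 66.8 CPM in the proximal tubule-like cells labelled UUO, with 6 of 10 found, and to 2254 CPM in those labelled sham, with 8 of 10 found and Adgre1 and Itgam at 0. Their part in the result was not tested.

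**Figure D3:**
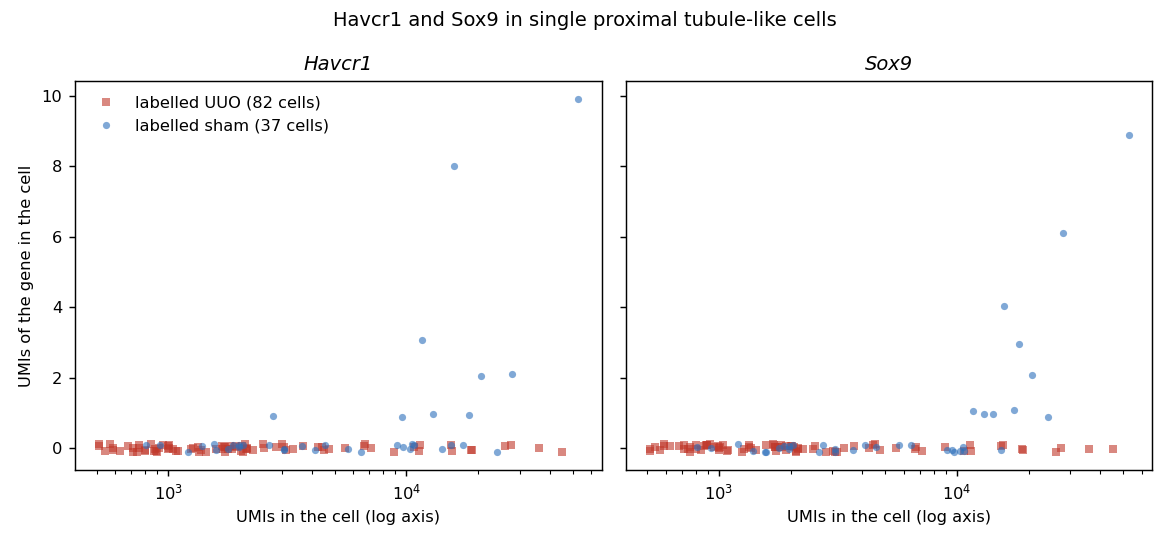
UMIs of Havcr1 (left) and Sox9 (right) in each proximal tubule-like cell against all UMIs of the cell (log axis), for 82 cells labelled UUO (red squares) and 37 labelled sham (blue circles), with a small random shift upward or downward so that points do not hide one another. Cells with Havcr1 or Sox9 all came from the library labelled sham and, except 1 cell of 2743 UMIs, held over 9000 UMIs, while the 11 cells labelled UUO at that depth held none.

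The other members were also lower in the proximal tubule-like cells labelled UUO, or near 0 in both libraries. Clu stood at 13.1 CPM (4.25 to 30.6) in the library labelled UUO and 236 CPM (187 to 293) in the library labelled sham, 17.98-fold lower (7.39 to 56.9), although 50 of the 81 UMIs labelled sham came from 1 cell and the level without it was 95.2 CPM. Wfdc2 stood at 20.97 CPM (9.05 to 41.3) and 151 CPM (113 to 198), 7.21-fold lower (3.40 to 17.6). Krt8 was 3.33-fold lower (1.86 to 6.28). Cd24a, at 31.4 and 66.9 CPM, was within 2-fold after 20 CPM were added.

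Against the other cells of their own library, the proximal tubule-like cells labelled sham were higher than stromal-like cells in all 6 members that passed the minimum (Havcr1, Clu, Krt8, Cd24a, Sox9 and Wfdc2), against 15.6% of genes. All 6 lay below 50 CPM in stromal-like cells and passed only through the class where they were high, so nothing is read from the count. The proximal tubule-like cells labelled sham were higher than endothelial-like cells in 5 of 6, against 14.8% higher and 19.8% lower among all genes, with Cd24a within 2-fold. Of these 5, all but Clu lay below 50 CPM in endothelial-like cells and passed only through the proximal class. Nothing is read from this count either. In the library labelled UUO no member passed the minimum against stromal-like cells, where 21.0% of genes were higher and 27.0% lower. Against endothelial-like cells 2 members passed and both, Clu and Cd24a, were lower, where 29.8% of genes were lower and 19.3% higher. Both lay below 50 CPM in proximal tubule-like cells and passed only through the endothelial-like cells, so nothing is read from this count. Under the gate on Kap, Miox and Slc34a1, 3 and 1 members were higher in the library labelled sham over stromal-like and endothelial-like cells.

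Krt20, a keratin of urothelium and of damaged proximal tubule, was almost absent. The library labelled UUO held 4 UMIs in 3 cells, all stromal-like, and the library labelled sham held 17 UMIs in 12 barcodes. In loop or distal tubule-like cells it was at 0, which allows up to 71.9 CPM, in the library labelled UUO, and at 0.384 CPM, from 1 UMI, in the library labelled sham. Of 7 urothelial markers, 0 were found in the loop or distal tubule-like cells labelled UUO and 3 in those labelled sham, at 19.6 summed CPM.

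All Sox9 UMIs labelled UUO were in stromal-like cells, 47 UMIs in 32 cells, as were the 4 of Krt20. Its level there was 10.7 CPM (7.86 to 14.2), against 3.57 CPM (3.12 to 4.07) in stromal-like cells labelled sham, a ratio of 2.999 (2.14 to 4.12) at a level below the 50 CPM minimum. In the library labelled sham 50.7% of Sox9 UMIs were in stromal-like cells, the largest share among the members, beside 25.5% in tubule-like cells. Stromal-like cells held 62495175 of all 85359332 UMIs labelled sham and 4392496 of 6023072 labelled UUO. A large stromal share is therefore not read as enrichment. For Lcn2, Clu, Krt8, Krt18 and Wfdc2, 73.1% to 78.7% of UMIs labelled sham were in tubule-like cells.

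UMIs of free RNA reach droplets of cells that do not express a gene, and RNA from 1 source keeps its genes in 1 ratio in every cell type. Each member was therefore set against Umod. In the library labelled sham, Lcn2 gave 0.799 UMIs per Umod UMI (0.776 to 0.823) in loop or distal tubule-like cells, 0.651 (0.599 to 0.707) in stromal-like, 0.556 (0.377 to 0.810) in endothelial-like and 0.619 (0.364 to 1.03) in macrophage- or dendritic-like cells. Clu gave 1.69 (1.65 to 1.73), 1.499 (1.40 to 1.603), 1.91 (1.45 to 2.54) and 1.5 (0.999 to 2.27) in the same 4 classes, Wfdc2 0.660, 0.601, 0.593 and 0.738, Krt8 0.174, 0.205, 0.160 and 0.190, and Krt18 0.158, 0.137, 0.123 and 0.119. Across a range of Umod levels of 23.3 CPM in stromal-like cells to 3984 CPM in loop or distal tubule-like cells, these 5 ratios moved by less than 1.5-fold. For Lcn2 and Clu the intervals in loop or distal tubule-like and stromal-like cells did not overlap. The part of free RNA in the low levels of stromal- and endothelial-like cells was not tested. Lcn2 in the library labelled UUO did not keep such a ratio, with 0 per Umod UMI (0 to 0.0484) in loop or distal tubule-like cells against 0.202 (0.113 to 0.344) in stromal-like and 1 (0.468 to 2.14) in endothelial-like cells.

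Cd24a departed from that ratio. It gave 0.415 per Umod UMI (0.401 to 0.430) in loop or distal tubule-like cells labelled sham, against 0.738 (0.681 to 0.799) in stromal-like, 2.14 (1.63 to 2.82) in endothelial-like and 2.98 (2.08 to 4.33) in macrophage- or dendritic-like cells. With the label UUO it gave 0.0641 (0.0202 to 0.156), 1.89 (1.44 to 2.50) and 11.6 (6.97 to 20.8) in loop or distal tubule-like, stromal-like and endothelial-like cells. In proximal tubule-like cells labelled sham, Clu gave 8.10 per Umod UMI (4.19 to 17.5), Wfdc2 5.20 (2.61 to 11.5) and Krt8 4.80 (2.40 to 10.6), all above the ratio of loop or distal tubule-like cells, while Lcn2 gave 0.600 (0.179 to 1.82) and did not stand apart from it. These ratios rest on 10 Umod UMIs. Of the 81 Clu UMIs, 50 came from 1 cell, and the Clu ratio without that cell was not computed.

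**Figure D4:**
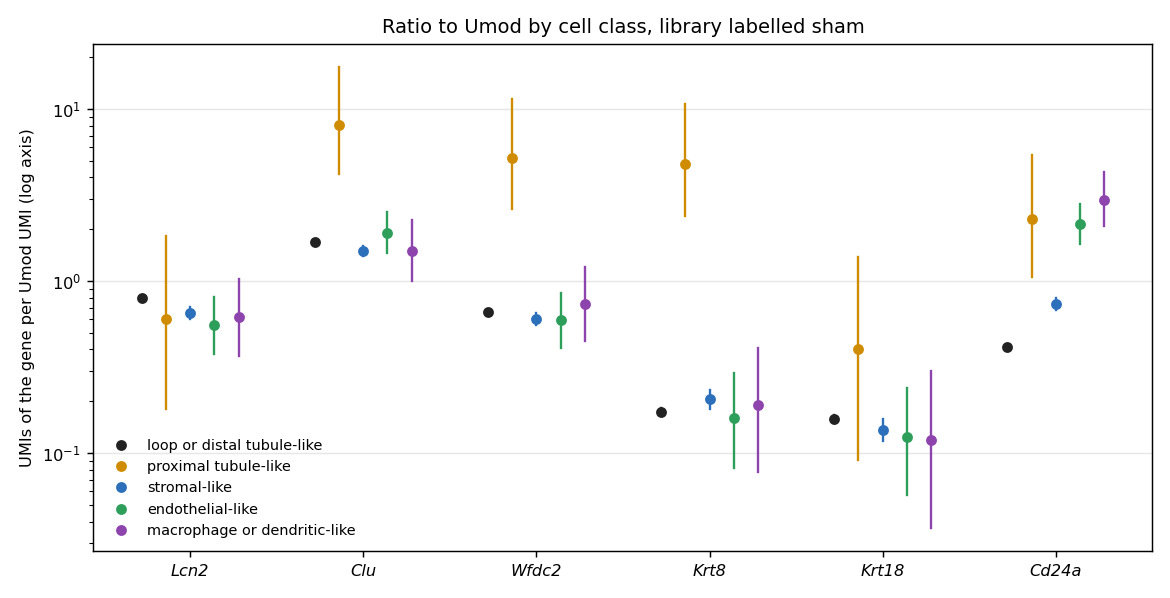
UMIs of 6 genes per Umod UMI (log axis) in 5 cell classes of the library labelled sham, with exact 95% intervals. Lcn2, Clu, Wfdc2, Krt8 and Krt18 moved by less than 1.5-fold among loop or distal tubule-, stromal-, endothelial- and macrophage- or dendritic-like cells, Cd24a moved further, and proximal tubule-like cells stood above for Clu, Wfdc2 and Krt8. In proximal tubule-like cells, 50 of the 81 Clu UMIs came from 1 cell.

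The members were found together in single tubule cells of the library labelled sham. The median loop or distal tubule-like cell held UMIs of 1 member in the library labelled UUO and 6 in the library labelled sham, and 5 or more were held by 1 of 16 and 204 of 236 cells. The median depths of 1357 and 9524 UMIs go with this count. In proximal tubule-like cells the medians were 0 and 1, and 0 of 82 and 6 of 37 cells held 5 or more. In stromal-like cells 0 of 691 and 6 of 7276 did.

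The 236 loop or distal tubule-like cells labelled sham were split again with the members left out, and the members varied among the 5 sub-clusters. Sub-cluster 3, 44 cells led by Egf and the salt transporter Slc12a1, held most Umod, at 9752 CPM, and sub-cluster 2, 55 cells, was led by Slc12a3 of the distal convoluted tubule and the proton pump subunit Atp6v1g3 of intercalated cells. Sub-cluster 1 held 61 cells led by Aard, S100g and Cldn10. Sub-cluster 4, 41 cells, had Mmp7, a protease, Nupr1, a stress response gene, and Ankrd1 among its leading genes, and sub-cluster 5, 35 cells, had Ccl20, Fxyd4 and the water channel Aqp2. Lcn2 stood at 2507, 1939, 1928, 5143 and 5182 CPM in sub-clusters 1 to 5, so that 4 and 5 stood above the others with intervals that did not overlap theirs. Wfdc2 ran the other way, at 3481, 3961, 2956, 1099.6 and 1139.8 CPM.

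The keratins and Cd24a were highest in sub-cluster 5. Krt18 stood at 225, 569, 152, 724 and 1657 CPM in sub-clusters 1 to 5 and Krt8 at 523, 641, 397, 846 and 1184 CPM. Cd24a stood at 1714, 1313, 1425, 1718 and 2233 CPM and Clu at 7591, 7553, 5410.03, 4358 and 8768 CPM. Sox9 ranged over 11.8 to 42.7 CPM and Havcr1 had 0, 0, 4, 4 and 1 UMIs. The macrophage transcripts Lyz2 and Cd74 were among the leading genes of sub-cluster 5. Over all loop or distal tubule-like cells macrophage markers summed to 120 CPM in the library labelled UUO, with 3 of 10 found, and 915 CPM in the library labelled sham, with 10 of 10 found. Their part in these levels was not tested.

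**Figure D5:**
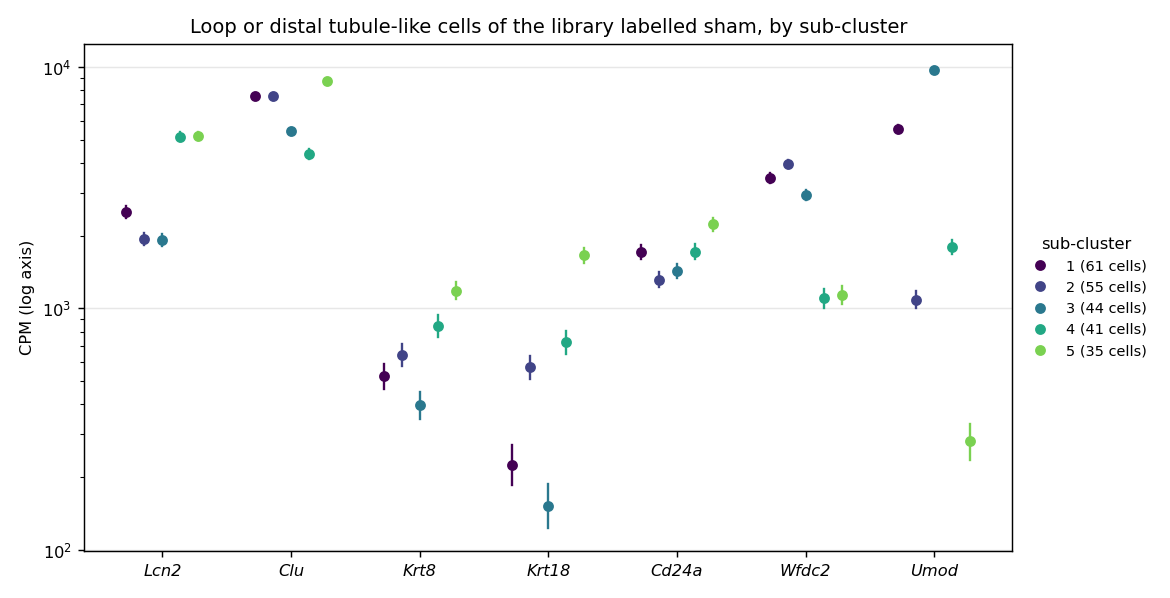
Level of 6 members and Umod, as CPM on a log axis with exact Poisson 95% intervals, in 5 sub-clusters of the loop or distal tubule-like cells labelled sham. Lcn2 was higher in sub-clusters 4 and 5 (5143 and 5182 CPM), where Wfdc2 was lowest, and Krt18 was highest in sub-cluster 5 (1657 CPM).

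Outside the named classes, cluster 24, led by Pcp4 and Stc2 and holding the nephron transcription factor Pax8 and Cdh6 among its leading genes, was picked after its values had been seen. It held 26 cells labelled UUO and 15 labelled sham. Havcr1, Lcn2, Krt20 and Sox9 were at 0 in the cells labelled UUO (up to 23.1 CPM), and stood at 43.2, 185, 24.7 and 74.0 CPM in those labelled sham, with 5 of the 7 Havcr1 and 3 of the 4 Krt20 UMIs in 1 cell each. Clu stood at 200.15 CPM (131 to 293) and 635 CPM (518 to 770), and Cd24a at 69.3 CPM (31.7 to 132) and 370 CPM (282 to 476). Podocyte markers summed to 872 CPM in the cells labelled UUO and 191 CPM in those labelled sham, and macrophage markers to 169 and 2084 CPM. Their part in these values was not tested.

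Other genes of the same settings were counted from 6 lists. Of 22 genes known from injured or repairing proximal tubule, 18 passed the minimum in proximal tubule-like cells, of which 0 were higher and 11 lower with the label UUO. The median log2 ratio was -1.26 against -0.11 over all genes. Among all genes that passed there, 10.6% were higher and 11.6% lower. Vcam1 stood at 47.2 CPM in the library labelled UUO and 465 CPM in the library labelled sham, 9.86-fold lower (6.04 to 17.1), and the monocyte attractant Ccl2 at 13.1 and 221 CPM, 16.9-fold lower (6.92 to 53.4). In stromal-like cells Vcam1 ran the other way, at 225 and 58.2 CPM, 3.87-fold higher (3.60 to 4.15) with the label UUO. In endothelial-like cells Vcam1 stood at 217 and 201 CPM, with an interval that included no difference. The highest ratios of that list belonged to the integrin Itgb8, at 52.4 and 37.8 CPM, and the stress factor Atf3, at 113 and 157 CPM, and their intervals included no difference. Of 16 other secreted injury markers 9 passed, 1 was higher and 6 were lower. Spp1, the secreted phosphoprotein osteopontin, was 22.7-fold lower (20.7 to 24.9) at 1279 and 29062 CPM, and it was also lower in stromal-like cells, 73.2-fold (68.2 to 78.6) at 180 and 13144 CPM, and in endothelial-like cells, 27.4-fold (19.996 to 38.5) at 109.7 and 3003 CPM. The complement component C3 was 13.6-fold lower in proximal tubule-like cells (9.35 to 20.4). Cst3, which encodes cystatin C, was 2.08-fold higher (1.78 to 2.43), and Timp2 stood at 183 and 198 CPM.

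The transport side ran the other way. Of 22 proximal tubule transport and metabolism genes, 21 passed in proximal tubule-like cells, of which 17 were higher and 0 lower with the label UUO, at a median log2 ratio of 1.51. Among all genes that passed there, 10.6% were higher and 11.6% lower. Some genes of this list are among the markers that named the class. Outside the tubule, 8 of the 9 genes of this list that passed in stromal-like cells were also higher (median log2 ratio 1.98), as were 9 of 9 in endothelial-like cells (median 2.31). Among all genes, 11.5% were higher in stromal-like and 8.09% in endothelial-like cells. The part of free RNA was not tested. Cyp4b1, a cytochrome, stood at 2078 and 282 CPM, 7.37-fold higher (5.96 to 9.19), and Pck1, an enzyme of glucose synthesis, at 1014 and 145 CPM, 6.97-fold higher (5.19 to 9.56). The endocytic receptor Cubn was 2.16-fold higher (1.26 to 3.85) and the transcription factor Hnf4a 1.58-fold higher (1.02 to 2.51), both within 2-fold after 20 CPM were added. Lrp2, megalin, a receptor that takes up Lcn2, was the only 1 of 9 Lcn2 and keratin partners that passed there, at 362 and 154 CPM, 2.35-fold higher (1.70 to 3.28). No gene of the other keratins and junction list passed in these cells, and of the loop of Henle list only Cldn10 did, at 314 and 198 CPM.

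In loop or distal tubule-like cells the lists gave mixed directions, beside 19.1% higher and 13.7% lower among all genes that passed. Of the injured or repairing proximal tubule genes 16 passed, 1 was higher and 7 lower with the label UUO, at a median log2 ratio of -0.95 against 0.14 over all genes. The 1 higher gene was Cryab, a small heat shock chaperone, at 6499 and 357 CPM, 18.2-fold (15.9 to 20.9). It rests on 271 UMIs in 16 cells labelled UUO, and the level without the cell richest in Cryab was not computed. Vim was at 168 and 76.8 CPM with an interval that included no difference, and Sox4 was 8.52-fold lower (2.35 to 70.4). Dcdc2a was at 0 in the library labelled UUO and 211 CPM in the library labelled sham, by its exact interval at least 2.37-fold lower. Of the other secreted markers 11 passed, 1 was higher and 5 lower. Gdf15, a stress cytokine, was 2.43-fold higher (1.10 to 4.70), and B2m was 1.61-fold higher (1.22 to 2.08) and within 2-fold. Spp1 was 16.3-fold lower (13.4 to 20.1), and Slpi stood at 0 and 54.9 CPM. Of the 100 Spp1 UMIs labelled UUO, 59 came from 1 cell. Without the cell richest in Spp1 in each library, it stood at 1296 CPM labelled UUO and 38679 CPM labelled sham.

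The remaining lists gave smaller counts there, beside 19.1% higher and 13.7% lower among all genes, and nothing is read from these counts. Of 15 other keratins and junction genes 9 passed, 1 was higher and 4 lower, and the sealing proteins Cldn3 and Cldn4 were 4.79-fold (1.32 to 39.7) and 6.28-fold (1.73 to 52.0) lower, from 2 UMIs each in the library labelled UUO. Epcam, at 767 and 736 CPM, and Ocln, at 95.9 and 32.6 CPM, had intervals that included no difference. Of 12 loop of Henle transport genes all 12 passed, 3 were higher and 3 lower, with Egf 4.35-fold (1.83 to 8.85) and Ppp1r1a 3.04-fold (2.14 to 4.21) higher. Slc12a1 was 2.39-fold lower (1.02 to 7.39). Tmem72, with 0 UMIs labelled UUO, was at least 1.09-fold lower by its exact interval. Of the proximal list 5 passed, 4 were higher and 0 lower, among them Kap at 360 and 3.84 CPM and Miox at 336 and 5.76 CPM, while Ass1 was within 2-fold. Kap in stromal-like cells stood at a like 363 CPM in the library labelled UUO and 5.15 CPM in the library labelled sham. Pax8 and Plec, the only 2 Lcn2 and keratin partners that passed, had intervals that included no difference.

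Genes with the most similar levels were sought over the 14 sums of cell classes and libraries with at least 10 cells, by Pearson's r of log2(CPM + 20), given as a description. These sums share libraries, and a few high sums set most of the values. Lcn2 was most like Ccl20, Il1f6 and Cxcl17 (r = 0.97, 0.97 and 0.96), Krt18 like Scx, Krt7 and Il17re (0.997, 0.996 and 0.992), and Krt8 like Tfcp2l1, Crb3 and Wwc1 (0.99, 0.99 and 0.98). Wfdc2 was most like Elf3, Cxadr and Serinc2 (0.98, 0.98 and 0.97) and Clu like Cldn6, Hoxb9 and Krt19 (0.96 each). Havcr1 was most like Ugt2b37, D630011A20Rik and Ubd (0.98, 0.97 and 0.97), Sox9 like D630011A20Rik, Serpina10 and Cfi (0.92, 0.91 and 0.88), and Cd24a, with the lowest values, like Kifc3, Pdgfb and Mal (0.84, 0.83 and 0.82). Krt20 was too low for this comparison. Among the members, Krt18 and Wfdc2 were closest (0.97), Havcr1 was close to Sox9 (0.84) and not to Lcn2 (0.03), and Lcn2 was closest to Cd24a (0.78).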

How the data were processed

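The authors deposited unnormalised expected counts (UMIs by gene and barcode). The submitters' processing notes name alevin, Salmon 0.13.1 and mm10. Ambiguous UMIs are split between genes, so 91.2% of nonzero values labelled UUO and 92.3% labelled sham were whole (within 1e-06). The sources used here do not say which barcodes were kept for deposit. The libraries held 1291 and 10812 barcodes with 6023072 and 85359332 UMIs.

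Cells with at least 500 UMIs, 300 genes and at most 20% mitochondrial UMIs were kept, and those with the highest scores of a Scrublet-like doublet caller, 0.8% per 1000 cells, were removed (9 labelled UUO and 908 labelled sham). Values scaled to 10000 per cell were log-transformed, 2000 variable genes without the 9 members were reduced to 30 principal components, and both libraries were clustered together by the Leiden method (leidenalg 0.10.2, resolution 1, 20 neighbours) into 28 clusters. A class was named from at least 3 markers that were 4-fold above other cells and in 10% of cells, and fibroblasts from 5 of 11 markers in 25% of cells with a median log2 ratio of at least -1.5. A cluster stayed unnamed when its median depth was under 0.333 of its library's with no own marker among its 10 leading genes, or when another class had more of them. These thresholds were set after clusters had been seen.

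Expected counts were summed per class and library, rounded and scaled to CPM. With 1 library a group nothing was tested. Poisson, Clopper-Pearson and conditional binomial intervals are exact at 95%, computed with SciPy 1.17.1, and cover counting error only, because cells of 1 library are not replicates. The members, lists and markers were chosen with earlier results of these data known. Named genes were the 9 members, and from each list the 2 highest and 2 lowest ratios between the libraries in loop or distal tubule-like cells, and by the same rule in proximal tubule-like cells because loop or distal tubule-like cells labelled UUO numbered 16. One gene that this rule names is not reported here. Of 198 listed symbols 197 matched and Ccn1 was taken as Cyr61. Calculations were tested on simulated data. Alternatives changed the UMI minimum, doublet removal, clustering, gating, weighting, the added CPM and the gene minimum.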

Additional observations from a re-analysis of the deposited data

Results flagged for a closer look

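Barcodes left out of the analysis, 248 labelled UUO and 1064 labelled sham, also held UMIs of the members. Each value below is a sum over barcodes that failed the filters or were removed as doublets, and was picked out because it lies above the 3 counts taken as the floor in barcodes that no comparison used. Lcn2 had 5 UMIs in such barcodes labelled UUO and 1120 in those labelled sham, Clu had 42 and 2161, Krt8 had 5 and 312, Cd24a had 36 and 727, and Wfdc2 had 28 and 959. In the library labelled sham alone, Krt18 had 216, Sox9 74 and Havcr1 12. Of the Lcn2 UMIs left out there, 1041 were in barcodes removed as doublets, of which 64 of 908 held 2 or more UMIs of Umod and Epcam together.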

How the results depend on the processing

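No paired analysis was possible because each group is 1 library and the labels give no replicate numbers. Of 137 recomputed counts of members, 126 stayed within 1.5 times the reported value. Sizes were less stable: 110 of 544 recomputed ratios moved by more than their counting error (without the cell richest in the member, 14 of 48 by 0.5 or more on the log2 scale), and 25 of 72 shares of cells left their intervals, 20 of them after thinning. With cells gated on markers, the members at least 2-fold higher in loop or distal tubule-like cells labelled UUO numbered 2 over stromal-like and 1 over endothelial-like cells (also 2 over stromal-like cells with each library clustered on its own). Under that gate, proximal tubule-like cells gave 1 over stromal-like and 1 over endothelial-like cells labelled UUO, and 3 and 1 in the library labelled sham. With 100 CPM added, proximal tubule-like cells labelled sham gave 3 and 1, and with equal weight for each cell 2 over endothelial-like cells. At resolution 0.5, 1 member was higher in stromal-like cells labelled UUO. Of 500 recomputed ratios of the 44 calls, 489 kept their direction and 461 stayed past 2-fold, and 9 reversed. In the gated proximal cells labelled sham the log2 ratio over stromal-like cells was -0.060 for Havcr1, -0.47 for Clu, -0.022 for Cd24a and -0.24 for Sox9, and over endothelial-like cells -0.016 for Havcr1, -0.12 for Clu and -0.33 for Sox9. The gated ratio of the library labelled UUO over that labelled sham in proximal cells was 0.0051 for Krt8. At resolution 0.5, Clu in proximal over endothelial-like cells labelled UUO was at 0.041. The gate left 10 proximal cells labelled sham, and the cause of these changes was not tested. Of the 6 members that passed between the libraries in loop or distal tubule-like cells, 4 to 6 were lower in the library labelled UUO under every alternative run, and in proximal tubule-like cells 5 or 6, except 2 under the gate and 2 with 100 CPM added. Leaving out the richest cell for each member was chosen after seeing the data. Without a minimum on low genes the share of all genes called moved by over 1.5 times in 11 of 12 comparisons, since more genes were counted. Among the 4 classes compared, 0 counts allow most, 71.9 CPM, in loop or distal tubule-like cells labelled UUO.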
